A study of Mus musculus with 5 samples.

Results

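The 37 genes described here encode proteins of the lysosome and of autophagy. They were chosen by the known role of their products, with no threshold on a measured value, and make up 37 of the 21366 named genes with a value on all 5 arrays. Each was read from the probes whose RefSeq accession belongs to its symbol, and the brightest probe stood for the gene. All 37 were matched, and all 37 were well above background on all 5 arrays, so none of their differences is a bound. Of these genes, 26 had 1 probe and 11 had several.

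The study measured RNA of CD4 T cells from C57BL/6 mice, cultured in 5 ways that all began with naive splenic cells, with 1 one-colour Agilent array for each culture. Th1 cells had received anti-CD3/CD28, IL-2, IL-12 and anti-IL-4 for 4 days. The iTreg cells had received anti-CD3/CD28, IL-2, TGF-b and antibodies against IFNg and IL-4 for 4 days. The Th1+TGFb culture (8 days in all) moved Th1 cells straight into that iTreg medium. The rested culture (8 days in all) kept Th1 cells in IL-2 with the IFN-g and IL-4 antibodies, without anti-CD3/CD28. Th1reg cells (12 days in all) were rested cells moved into the iTreg medium for the last 4 days. IL-2 and a block of IL-4 were common to all 5 cultures, and every comparison also differs in agents or days that cannot be told apart. There were no replicates, so no test, standard error or p-value could be had, and each value below describes 1 array.

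Lysosomes are acidic organelles that break down proteins, sugars and lipids. Cathepsins and glycosidases do the cutting, the vacuolar ATPase (V-ATPase) pumps in the protons that these enzymes need, and LAMP proteins line the membrane. In autophagy, the ULK1 and Beclin 1 complexes start a membrane that the ATG5, ATG7, ATG12 and ATG16L1 proteins decorate with LC3 and GABARAP proteins, and the closed vesicle is delivered to a lysosome. The transcription factor TFEB binds a short E-box element in the promoters of many of these genes. In T cells, autophagy is known to support survival and memory, and receptor signalling and nutrient sensing through mTORC1 restrain TFEB.

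The E-box that TFEB-type factors bind was searched for in the promoter windows of RefSeq (GRCm38.p6), which run from 250 bases before to 50 bases after each annotated start. Windows were found for 29 of the 37 genes. The 6 letters CACGTG were present for 9 of them (31%), against 8.91% of 17492 coding genes and 7.15% of all 32851 windows. The longer TCACGTGA was present for 5 (17.2%), against 1.41% of coding genes and 0.974% of all windows. TCACGTGA contains CACGTG, so its holders are counted in both. Both words read the same on either strand. The forkhead word GTAAACA, or TGTTTAC on the other strand, was in none of the 29, in 3.45% of coding genes and in 3.65% of all windows. The holders of TCACGTGA were Atp6v0d1, Atp6v1a, Ctsa, Ctsd and Mcoln1, and those of CACGTG alone were Atg5, Atg7, Ctsl and Lamp1. Below, a stretch of 60 bases upstream of the start is shown for 6 of them, because the element is what these promoters share while the genes' signals differ. Capitals mark every CACGTG or TCACGTGA in the stretch, and all sequences run 5′ to 3′ on the gene's strand.
Ctsa, chr2:164833713-164833772, plus strand: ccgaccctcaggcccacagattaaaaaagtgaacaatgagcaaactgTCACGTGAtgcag
Ctsd, chr7:142387893-142387952, minus strand: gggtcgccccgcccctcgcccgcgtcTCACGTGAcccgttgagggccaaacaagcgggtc
Atp6v1a, chr16:44139358-44139417, minus strand: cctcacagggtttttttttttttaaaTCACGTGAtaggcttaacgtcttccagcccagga
Mcoln1, chr8:3500434-3500493, plus strand: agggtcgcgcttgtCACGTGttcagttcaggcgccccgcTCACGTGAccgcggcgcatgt
Lamp1, chr8:13159097-13159156, plus strand: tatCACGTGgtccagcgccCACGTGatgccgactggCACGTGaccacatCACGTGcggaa
Ctsl, chr13:64370711-64370770, minus strand: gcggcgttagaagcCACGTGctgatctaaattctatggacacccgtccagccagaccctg
Lamp1 held 4 copies of CACGTG within 60 bases and Mcoln1 held 2, and the matches describe letters, not binding. Outside the stretches shown, Ctsa held another TCACGTGA just past the start, and Ctsd another CACGTG further upstream.

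Signals are given as scaled log2 values, meaning log2 of the ratio between the scanner's processed signal and the 75th percentile of that array. Genes are called 2-fold apart when the log2 difference between a pair of arrays is at least 1. Repeat spots of a probe on the same array had a median SD of 0.055 to 0.073 log2 units, and 0.167 to 0.203 where the signal was under 100. This spread holds nothing of the variation between cultures. Between 45.7% and 48.7% of the spots were well above background on each array. All 8 T cell markers, among them Cd3e and Cd4, were well above background on every array. Of 16 myeloid markers, S100a9, S100a8, Lyz1 and Lyz2 were well above background on no array, and 7 to 10 of the 16 were on a given array. The B cell markers Cd79a and Pax5 were well above background on no array, while Cd22 and Cr2 were on all 5. Of the 4 CD8 and NK cell markers, Cd8a was well above background in iTreg only, at -0.29, and Ncr1 and Klrb1c on no array. Cd8b1 was well above background on all 5, from -2.73 in Th1reg to -0.75 in rested. The log2 of the myeloid list's summed signal ran from 8.63 in Th1reg to 10.76 in rested, and its 3 brightest genes were Siglech, Csf3r and Itgam. Whether the probes of these 3 genes read their own RNA was not tested. Myeloid cells express many lysosomal genes strongly, and the part of myeloid and B cells in the values below was not tested. Fewer cells of a type and less RNA per cell cannot be told apart in these bulk samples.

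**Figure D1:**
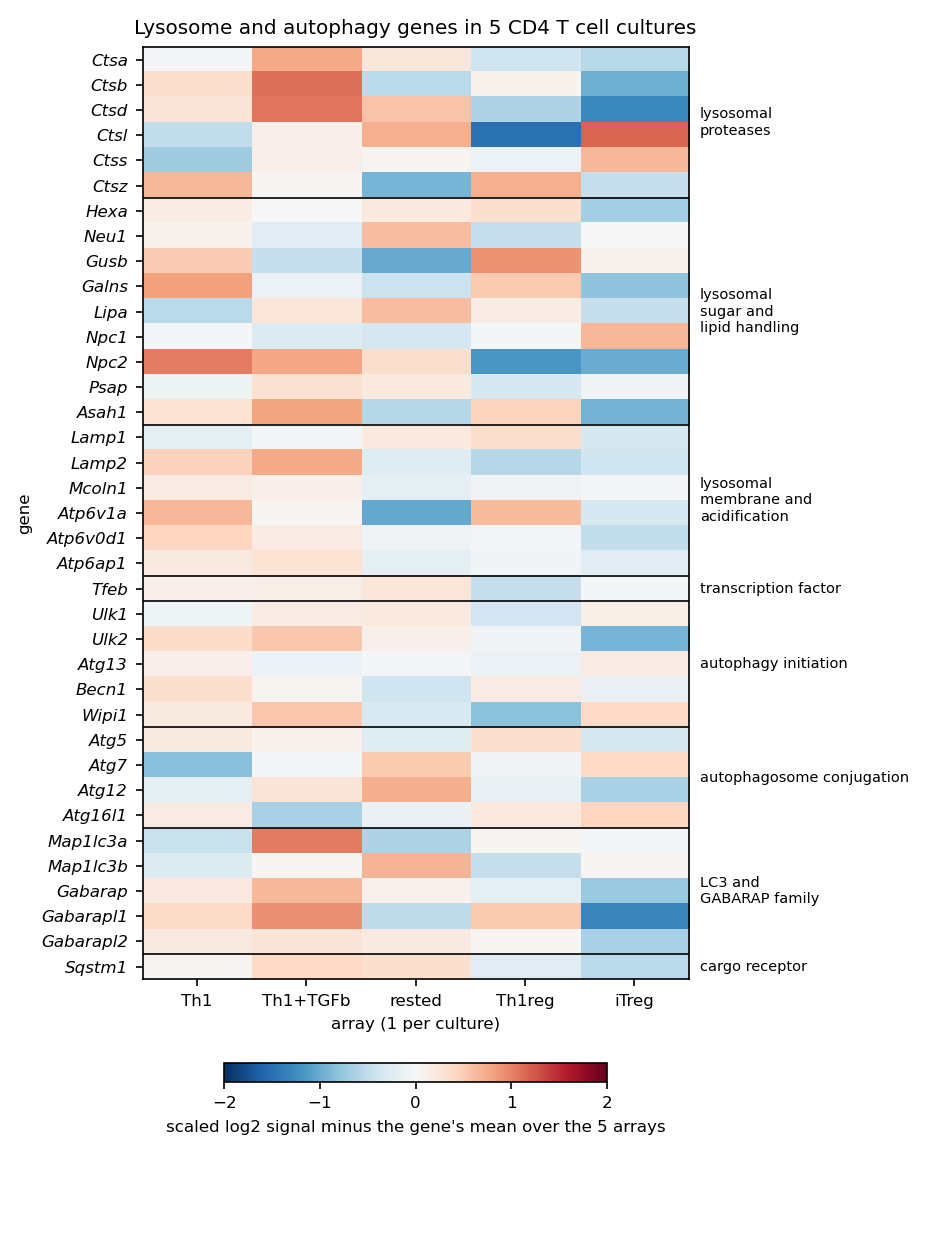
Scaled log2 signal of each of the 37 genes minus that gene's mean over the 5 arrays, by culture and role, 1 array per culture (colour scale from -2 to 2). Th1+TGFb held the highest level of 14 of the 37 genes (10.8% of all genes well above background on some array), and iTreg the lowest level of 16 (23.6%). With spike-in scaling rested held the lowest level of 31 (72.2%) and iTreg of 1 (5.18%). On that scale Th1+TGFb held the highest level of 6 (7.87%) and iTreg of 13 (29.7%).

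Over the 6 comparisons, 21 of the 37 genes were at least 2-fold apart in at least 1, which is 56.8% against 62.2% of the 10718 genes that were well above background on all 5 arrays. The median distance between a gene's highest and lowest array was 1.30 log2 units for the 37 genes and 1.29 for the 10718. As a group they thus spread over the cultures about as much as well measured genes in general. Each array serves in at least 2 of the 6 comparisons, so they are not independent of each other. Shares by role rest on few genes each. Of the lysosomal genes, 15 of 21 (71.4%) were 2-fold apart in some comparison, near the 62.2% above. Of the autophagy genes 6 of 15 (40%) were. Within the lysosomal genes, these were 6 of 6 cathepsin genes, 7 of 9 of sugar and lipid breakdown, and 2 of 6 of membrane and acidification. Tfeb itself, whose product switches on lysosomal genes, kept within 0.71 log2 units over the 5 arrays. The highest array was Th1+TGFb for 14 genes (10.8% of all genes well above background on some array), rested for 7 (24.9%), Th1 for 6 (22.1%), Th1reg for 5 (27.7%) and iTreg for 5 (14.5%). The lowest was iTreg for 16 genes (23.6% of all), Th1reg for 9 (18.7%), rested for 7 (32.9%), Th1 for 3 (10.3%) and Th1+TGFb for 2 (14.5%). Which array was highest or lowest depends on the scaling, so the orders below hold for the 75th percentile scale. With spike-in RNAs in its place, rested was the lowest array for 31 of the 37 genes, as it was for 72.2% of all genes. Th1+TGFb was then the highest for 6 (7.87% of all), and iTreg the lowest for 1 (5.18%) and the highest for 13 (29.7%).

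The 6 cathepsin genes were all 2-fold apart in at least 1 comparison, against 62.2% of the genes well above background on all 5 arrays. They did not share a pattern. Ctsl, a cysteine protease, had the widest span of all 37 genes: 0.54 in Th1, 1.74 in rested, -0.47 in Th1reg, 1.13 in Th1+TGFb and 2.19 in iTreg. Values follow the Th1 line first (Th1, rested, Th1reg), then Th1+TGFb and iTreg. The lowest and highest arrays for Ctsl were thus Th1reg and iTreg, whose last 4 days were in the same medium. Ctss, a cysteine protease best known from antigen presentation, was lowest in Th1 at 4.04 and highest in iTreg at 5.41, with 4.86 in Th1+TGFb, 4.81 in rested and 4.64 in Th1reg. Ctsd, the main aspartic protease of the lysosome, stood at 6.08 in Th1, 6.40 in rested, 5.21 in Th1reg, 6.89 in Th1+TGFb and 4.53 in iTreg. The cultures in iTreg medium therefore held both the highest and the lowest Ctsd signal. Ctsb, a cysteine protease, stood at 5.36 in Th1, 4.48 in rested, 5.08 in Th1reg, 6.12 in Th1+TGFb and 4.03 in iTreg. Ctsz, which trims single residues from protein ends, stood at 5.37 in Th1, 3.78 in rested, 5.43 in Th1reg, 4.73 in Th1+TGFb and 4.25 in iTreg. Its rested signal was the lowest and its Th1 and Th1reg signals differed by less than 0.1. Ctsa, a carboxypeptidase that also shields the sialidase NEU1, had its lowest value of 5.40 in iTreg and its highest of 6.71 in Th1+TGFb, with 5.91 in Th1, 6.18 in rested and 5.56 in Th1reg.

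Among the 9 genes of sugar and lipid breakdown, 7 were 2-fold apart in some comparison, against 62.2% of the genes well above background on all 5 arrays. Npc2, which binds cholesterol in the lysosome and hands it to NPC1, had signals of 6.75 in Th1, 6.07 in rested, 4.56 in Th1reg, 6.50 in Th1+TGFb and 4.73 in iTreg. The arrays of Th1reg and iTreg stood well apart from the other 3, whereas Npc1, its membrane partner, was highest in iTreg at 1.16 and between 0.17 and 0.48 elsewhere. Gusb, beta-glucuronidase, was measured at 3.14 in Th1, 1.63 in rested, 3.54 in Th1reg, 2.18 in Th1+TGFb and 2.71 in iTreg. Galns, which removes sulphate from keratan and chondroitin sulphate, was measured at 1.91 in Th1, 0.65 in rested, 1.61 in Th1reg, 0.97 in Th1+TGFb and 0.27 in iTreg. Both had low rested signals, and Galns was lower still in iTreg. Asah1, acid ceramidase, reached 0.94 in Th1, 0.10 in rested, 1.12 in Th1reg, 1.46 in Th1+TGFb and -0.27 in iTreg. Lipa, the lysosomal acid lipase, was 0.71 in Th1, 1.87 in rested, 1.41 in Th1reg, 1.5 in Th1+TGFb and 0.79 in iTreg. Rested was the highest array for Lipa and the lowest for Gusb. Hexa, a subunit of beta-hexosaminidase, read 2.69 in Th1, 2.73 in rested, 2.87 in Th1reg, 2.52 in Th1+TGFb and 1.86 in iTreg, so iTreg alone stood apart. Neu1, a sialidase, read 5.02 in Th1, 5.56 in rested, 4.49 in Th1reg, 4.72 in Th1+TGFb and 4.93 in iTreg. Psap, the precursor of the saposins that present lipids to hydrolases, spanned only 3.24 to 3.88.

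Genes of the lysosomal membrane and of acidification were steadier. Of the 6, 2 were 2-fold apart in some comparison, against 62.2% of the genes well above background on all 5 arrays. Atp6v1a, the catalytic subunit of the V-ATPase, stood at 3.63 in Th1, 1.94 in rested, 3.6 in Th1reg, 3.02 in Th1+TGFb and 2.65 in iTreg. Rested was thus the low array and Th1 and Th1reg were level, as for Ctsz. Lamp2, a membrane glycoprotein also used in chaperone-mediated autophagy, stood at 2.11 in Th1, 1.41 in rested, 1.07 in Th1reg, 2.40 in Th1+TGFb and 1.25 in iTreg. Lamp1, its relative and the gene with 4 E-boxes above, lay between 5.92 in iTreg and 6.60 in Th1reg. Mcoln1, the lysosomal calcium channel, lay between 4.06 and 4.4. Atp6v0d1, a subunit of the membrane sector of the pump, ran from 2.75 in iTreg to 3.68 in Th1, and the accessory subunit Atp6ap1 from 2.17 to 2.66. The 5 holders of TCACGTGA therefore included the steadiest membrane gene, Mcoln1, and the widest, Atp6v1a.

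Within the LC3 and GABARAP family, whose products are attached to the growing autophagosome membrane, the paralogs differed from each other. Gabarapl1 was 6.62 in Th1, 5.74 in rested, 6.77 in Th1reg, 7.16 in Th1+TGFb and 4.92 in iTreg. Map1lc3a was -0.16 in Th1, -0.33 in rested, 0.33 in Th1reg, 1.32 in Th1+TGFb and 0.27 in iTreg, so only Th1+TGFb stood apart. Map1lc3b was 3.63 in Th1, 4.59 in rested, 3.44 in Th1reg, 3.93 in Th1+TGFb and 3.96 in iTreg, with rested the highest array. Gabarap ran from 5.46 in iTreg to 6.84 in Th1+TGFb, and Gabarapl2 lay between 5.34 and 5.57 on 4 arrays and at 4.67 in iTreg. All 3 GABARAP genes were thus lowest in iTreg on this scale. Binding of one paralog's RNA to another's probe was not tested.

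**Figure D2:**
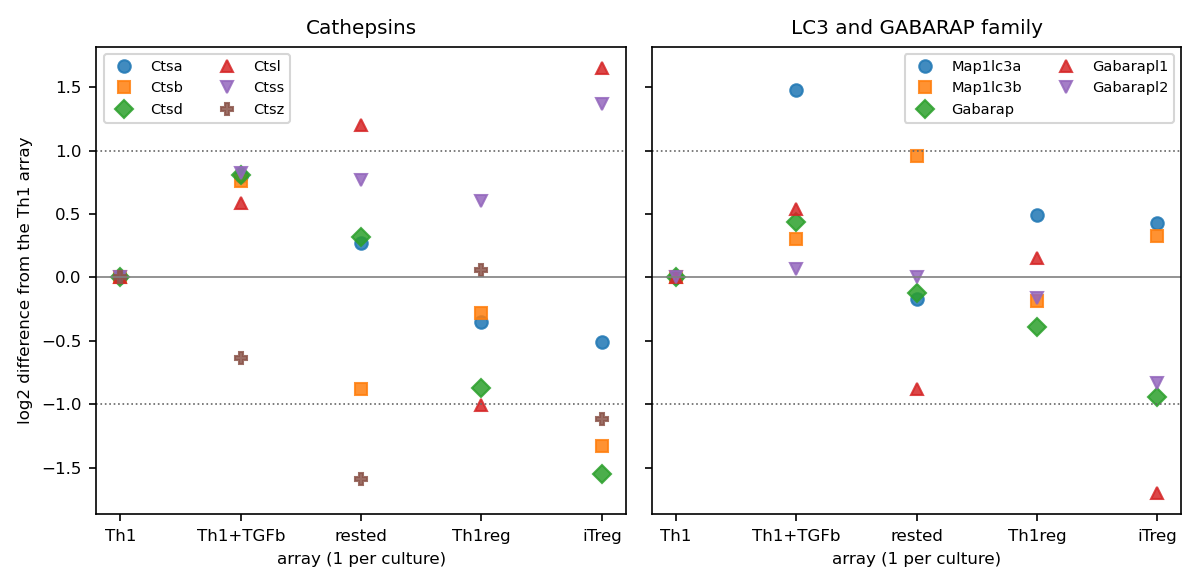
Log2 difference of each array from the Th1 array for the 6 cathepsin genes (left) and the 5 LC3 and GABARAP genes (right), 1 point per array, with dotted lines at 2-fold. In iTreg, Ctsl and Ctss lie above the Th1 level by 1.65 and 1.37, while Ctsd, Ctsb and Ctsz lie below it, and Gabarapl1 lies lowest of its family at -1.70.

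Of the 5 genes that start autophagy, 3 never reached a 2-fold difference. The other 2 did in some comparison, as did 62.2% of the genes well above background on all 5 arrays. Ulk1, the kinase that starts autophagy, lay between 4.11 and 4.70, Atg13, its partner, between 3.83 and 4.12, and Becn1, of the lipid kinase complex, between 1.82 and 2.55. Ulk2, a kinase of the same type, was 1.04 in Th1, 0.78 in rested, 0.60 in Th1reg, 1.21 in Th1+TGFb and -0.26 in iTreg. Wipi1, which binds the lipid made on the new membrane, was the dimmest gene of the group, with -2.12 in Th1, -2.61 in rested, -3.13 in Th1reg, -1.77 in Th1+TGFb and -1.90 in iTreg, and its processed signal was 23.6 to 72.4, so that its differences are imprecise. In the conjugation step, Atg7, the enzyme that activates ATG12 and the LC3 proteins, was 0.68 in Th1, 2.04 in rested, 1.44 in Th1reg, 1.5 in Th1+TGFb and 1.92 in iTreg. Another Atg7 probe, designed on the same accession, did not follow it: it differed by -0.45 between rested and Th1 and by -0.30 between iTreg and Th1. Atg5 lay between 2.26 and 2.95, Atg12 between 1.95 in iTreg and 3.32 in rested, and Atg16l1 between 0.73 in Th1+TGFb and 1.80 in iTreg. The cargo receptor gene Sqstm1, which encodes p62, ran from 2.20 in iTreg to 3.14 in Th1+TGFb. By the brightest probe, none of Atg5, Atg12, Atg16l1 and Sqstm1 was 2-fold apart in any of the 6 comparisons. The other Atg12 probe differed by -1.26 in iTreg against Th1, past 2-fold. It differed by -0.13 in rested against Th1, where the brightest probe gave 0.92.

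**Figure D3:**
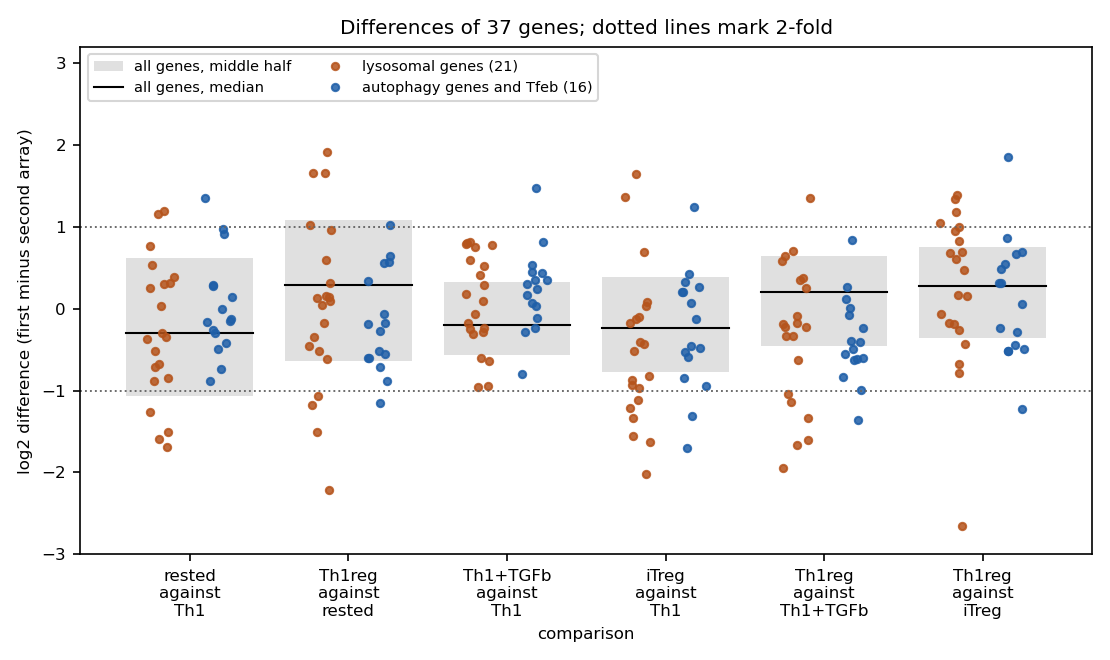
Log2 difference of each of the 37 genes in the 6 comparisons, with lysosomal genes in orange and autophagy genes with Tfeb in blue; grey boxes run from the lower to the upper quartile of all genes measured in that comparison and black lines their median. In Th1+TGFb against Th1, Map1lc3a at 1.48 is the only point past the dotted 2-fold lines.

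The effect of rest was read from the rested against the Th1 array. Here 4 of the 37 genes were at least 2-fold lower in rested cells and 3 higher, or 18.9% apart, against 44.2% of all genes measured (17.6% higher and 26.7% lower) and 40.7% of the genes well above background on all 5 arrays (12.4% higher and 28.3% lower). The lower genes were Atp6v1a (3.22-fold), Ctsz (3.01-fold), Gusb (2.86-fold) and Galns (2.39-fold), all lysosomal. The higher ones were Atg7 (2.56-fold by its brightest probe only), Ctsl (2.30-fold) and Lipa (2.23-fold), and Map1lc3b was just under the line at 1.96-fold. The members' median was -0.16, against -0.29 for all genes. Of all genes 2-fold apart, 39.7% were higher in rested, against 7.0% with spike-ins, 29.6% with another background correction (normexp) and 65.4% with detected probes. Scaling to spike-in RNAs shifts the all-gene median by -1.13 here, which makes 23 of the 37 genes lower and none higher and takes Ctsl to 0.08, Lipa to 0.03 and Atg7 to 0.23. Scaling to detected probes shifts the all-gene median by 0.46 and leaves 2 of the 37 genes lower and 7 higher. Of the myeloid list, 4 of 11 measured genes were 2-fold higher in rested cells and 1 lower, or 1 and 2 with spike-ins. The higher ones were Itgam (2.32), Csf3r (1.51), Siglech (1.44) and Tyrobp (1.32). Whether the first 3 probes read their own RNA was not tested, and Tyrobp was not well above background in Th1. Csf1r differed by 0.14, and Cd68, itself a lysosomal glycoprotein, by -1.72. All 4 B cell markers measured were 2-fold higher in rested cells.

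Return to stimulation in the iTreg medium was read from Th1reg against rested. Of the 37 genes, 5 lay 2-fold or more above rested in Th1reg and 5 below, or 27.0% apart, against 47.7% of all genes measured (27.7% higher and 20.1% lower) and 43.6% of those well above background everywhere (29.7% higher and 13.9% lower). Gusb was 3.77-fold higher, Atp6v1a 3.16-fold, Ctsz 3.15-fold, and Asah1 and Gabarapl1 2.04-fold each. Ctsl was 4.62-fold lower, Npc2 2.85-fold, Ctsd 2.27-fold, Map1lc3b 2.22-fold and Neu1 2.09-fold. Lysosomal genes thus stood on both sides, with Gusb, Atp6v1a and Ctsz at least 2-fold higher under all 7 other processing choices. Among these, here and below, the filter choices cannot change a member's difference, nor can the mean of probes for a gene with 1 probe. The deposited value table holds the same signal over another constant per array, so it could change only calls close to 2-fold. Here it took the members' median from -0.17 to -0.10. The members' median was -0.17 and that of all genes 0.29. Of all genes 2-fold apart, 58.0% were higher in Th1reg, against 36.5% with detected probes and 92.5% with spike-ins. Spike-in scaling shifts the all-gene median by 1.42 here. It gives 23 members higher and none lower and turns Ctsd to 0.24, Map1lc3b to 0.27 and Neu1 to 0.36. Scaling to detected probes shifts the all-gene median by -0.43 and gives 3 members higher and 13 lower. Of the myeloid markers measured, 7 of 12 were 2-fold lower in Th1reg and 1 higher, and all 4 B cell markers measured were lower. The 7 myeloid genes included Itgam, Csf3r and Siglech, and also Adgre1, C1qa and Tyrobp, which were not well above background in Th1reg.

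**Figure D4:**
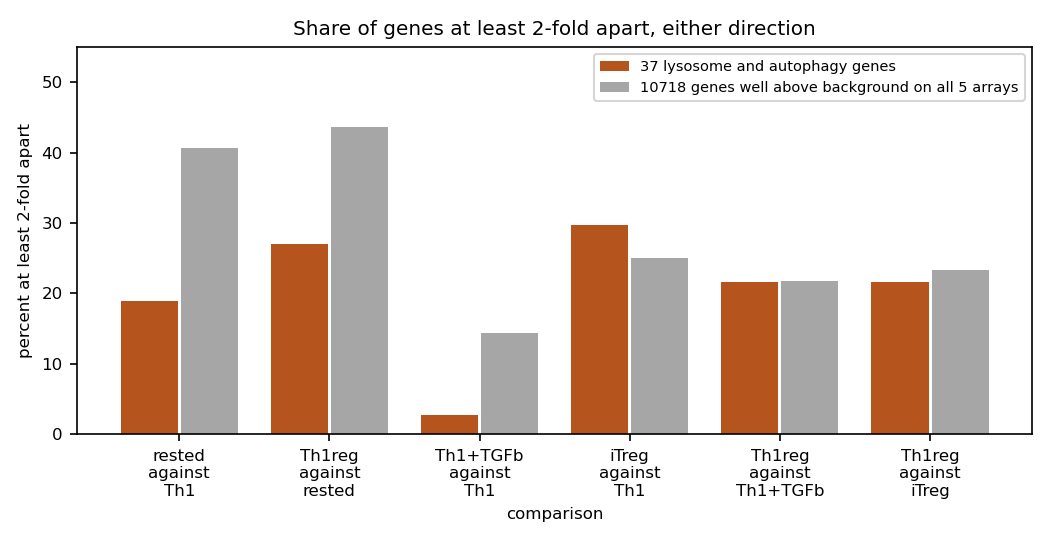
Percent of the 37 genes (orange) and of the 10718 genes well above background on all 5 arrays (grey) that were at least 2-fold apart in either direction, by comparison. The orange bar is the shorter one in the comparisons with the rested array (18.9% against 40.7%, and 27.0% against 43.6%) and in Th1+TGFb against Th1 (2.7% against 14.4%), and is the taller one in iTreg against Th1 (29.7% against 25.1%).

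When Th1 cells were moved straight into the iTreg medium, the group hardly differed by 2-fold. Map1lc3a alone was at least 2-fold higher in Th1+TGFb than in Th1 (2.79-fold), and no gene was lower, so that 2.7% of the 37 genes were apart against 19.1% of all genes measured (11.3% higher and 7.79% lower) and 14.4% of those well above background everywhere (7.3% higher and 7.09% lower). Below the 2-fold line, 5 of the 6 cathepsin genes lay above 0: the log2 differences were 0.82 for Ctss, 0.80 for Ctsd, 0.79 for Ctsa, 0.75 for Ctsb and 0.60 for Ctsl, against -0.64 for Ctsz. The median of the 6 was 0.77, and between 0.47 and 1.02 under the other scalings. Of the other cell types' markers, 3 of 9 myeloid genes measured were 2-fold higher in Th1+TGFb and none lower, with a median of 0.95, and 3 of 3 B cell genes were higher; their part in the result was not tested. Gusb (-0.96) and Galns (-0.94) lay near the line on the other side. The median was 0.18 for the members and -0.20 for all genes. Of all genes 2-fold apart, 59.3% were higher in Th1+TGFb, against 29.0% with spike-ins, 48.2% with normexp and 78.6% with detected probes. The members' median was -0.13 with spike-ins, which shift the all-gene median by -0.30. When scaled to detected probes, which shift it by 0.23, 6 members were higher.

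Naive cells after 4 days in either medium were compared in iTreg against Th1. Of the 37 genes, 8 lay 2-fold or more below Th1 in iTreg and 3 above, or 29.7% apart, against 28.6% of all genes measured (10.8% higher and 17.8% lower) and 25.1% of those well above background everywhere (7.84% higher and 17.3% lower), a share near the background. Npc2 was 4.05-fold lower, Gabarapl1 3.25-fold, Galns 3.10-fold, Ctsd 2.93-fold, Ctsb 2.52-fold, Ulk2 2.47-fold, Asah1 2.31-fold and Ctsz 2.17-fold. Ctsl was 3.14-fold higher, Ctss 2.59-fold and Atg7 2.36-fold by its brightest probe. The cathepsins were thus split, with Ctsl and Ctss higher, Ctsd, Ctsb and Ctsz lower, and Ctsa under 2-fold at -0.51. Cysteine proteases stood on both sides, with Ctsl and Ctss higher and Ctsb lower. Under all 7 other processing choices Npc2, Gabarapl1, Galns and Ctsd remained at least 2-fold lower and Ctsl and Ctss at least 2-fold higher. The other probe of Ulk2 differed by -0.07. Of all genes 2-fold apart, 37.8% were higher in iTreg, against 64.4% with detected probes and 61.9% with spike-ins. The median was -0.45 for the members and -0.24 for all genes. Scaling to detected probes or to spike-ins shifts the all-gene median by 0.38 or 0.34 and leaves 4 members lower and 4 higher. Of 8 T cell markers 6 were also 2-fold lower in iTreg, among them Cd4 with -1.26 and Cd3d with -1.49, while 2 of 4 B cell markers were higher and 3 of 8 myeloid markers lower, and their part in the result was not tested.

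Rest before the iTreg medium was examined in Th1reg against Th1+TGFb. Here 7 of the 37 genes were at least 2-fold lower in Th1reg and 1 higher, or 21.6% apart, against 27.4% of all genes measured (12.3% higher and 15.1% lower) and 21.7% of those well above background everywhere (12% higher and 9.72% lower). Npc2 was 3.83-fold lower, Ctsd 3.19-fold, Ctsl 3.03-fold, Wipi1 2.57-fold, Lamp2 2.52-fold, Ctsa 2.21-fold and Ctsb 2.05-fold, and Gusb was 2.57-fold higher. The median of the 6 cathepsin genes was -1.09, with 4 of them lower, and that of the LC3 and GABARAP genes was -0.49, with none 2-fold apart. With spike-ins these medians were -0.49 and 0.11, so the direction of the LC3 and GABARAP group turned. Npc2, Ctsd, Ctsl and Gusb kept their 2-fold difference under all 7 other choices. Ctsa, Ctsb, Lamp2 and Wipi1 did not with spike-ins, which shift the all-gene median by 0.60 and give 2 lower and 5 higher members. The other probe of Lamp2 differed by -0.60, and that of Ctsa was not well above background. The median was -0.33 for the members and 0.20 for all genes. Of all genes 2-fold apart, 44.8% were higher in Th1reg, against 27.5% with detected probes and 81.9% with spike-ins. The myeloid list had 5 of 9 measured genes 2-fold lower in Th1reg and none higher, with Itgam, Csf3r and Siglech among the 5. Of 4 B cell markers 3 were lower and 1 higher.

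Cells that ended in the same iTreg medium from different starts were compared in Th1reg against iTreg. Of the 37 genes, 6 lay 2-fold or more above iTreg in Th1reg and 2 below, or 21.6% apart, against 27.9% of all genes measured (15.8% higher and 12.1% lower) and 23.3% of those well above background everywhere (15.1% higher and 8.17% lower). Gabarapl1 was 3.6-fold higher in Th1reg, Asah1 2.63-fold, Galns 2.53-fold, Ctsz 2.27-fold, Ctsb 2.07-fold and Hexa 2.0-fold. Ctsl was 6.28-fold lower, the furthest apart of all members in any comparison, and Wipi1 was 2.33-fold lower. Npc2, low on both arrays, differed by -0.17. The differences of Ctsl, Gabarapl1 and Asah1 passed 2-fold under all 7 other choices. Scaling to detected probes, which shifts the all-gene median by -0.35, left 2 members higher and 4 lower. The median was 0.32 for the members and 0.28 for all genes. Of all genes 2-fold apart, 56.6% were higher in Th1reg, against 31.1% with detected probes and 67.2% with normexp. Of the 8 T cell markers 3 were also 2-fold higher in Th1reg and none lower, with a median of 0.94, while 3 of 4 B cell and 2 of 2 CD8 and NK cell markers measured were lower and the myeloid markers were split, 3 higher and 2 lower of 9. Their part in the result was not tested.

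Other genes of the pathway were taken from general lists. Of the other V-ATPase subunits, 5 of 15 measured were 2-fold lower in rested than in Th1 cells and none was higher: Atp6v0d2 was 18.8-fold lower, Atp6v0a1 8.88-fold, Atp6v0b 3.49-fold and Atp6v0c 2.23-fold. That is 33.3% apart, against 44.2% of all genes (26.7% lower), with 1 higher and 3 lower with detected probes and none higher and 14 lower with spike-ins. Against rested cells, Th1reg had 8.79-fold more Atp6v0a1 signal, where 4 of 16 subunits were higher and 1 lower (31.2% apart against 47.7% of all genes, 27.7% higher), with 1 higher and 2 lower with detected probes and 14 higher and none lower with spike-ins. Both shares of subunits apart were below those of all genes. In rested cells Atp6v0d2 (-2.58) and Atp6v0a1 (-2.05) were dim, near Wipi1 (-2.61), so their folds that involve the rested array are imprecise. The list's median was -0.78 for rested against Th1, between -1.91 and -0.25 under the other scalings, and 0.64 for Th1reg against rested, between 0.13 and 2.07. In Th1reg and iTreg, Atp6v0d2, an alternative subunit d, was not well above background, while it stood at 1.66 in Th1 and 2.26 in Th1+TGFb. Among other lysosomal hydrolases, 6 of 32 measured were 2-fold higher in rested cells than in Th1 and 5 lower (34.4% apart against 44.2% of all genes), with the cathepsin gene Ctsf 8.41-fold and Ctso 5.78-fold higher, and 5 were higher and 6 lower of 33 in Th1reg against rested (33.3% apart against 47.7%), with Ctsf 13.0-fold lower. Ctsf stood at only -2.06 in Th1 and -2.69 in Th1reg, and Ctso at -2.82 in Th1. These dim levels, near those of Wipi1, make the folds imprecise. The hydrolases' split turned with the scaling: rested against Th1 it was 11 higher and 1 lower with detected probes and 3 higher and 15 lower with spike-ins, and in Th1reg against rested 1 higher and 10 lower with detected probes and 22 higher and 3 lower with spike-ins. Of 20 genes of lysosomal membrane and sorting, 5 were 2-fold higher and 5 lower in rested than in Th1 cells, with the calcium channel gene Mcoln2 at 2.77 and the sialic acid exporter gene Slc17a5 at 2.57. That is 50% apart against 44.2% of all genes, and the split was 7 higher and 1 lower with detected probes and 2 higher and 10 lower with spike-ins. Slc17a5 stood at 6.12 in Th1, 8.69 in rested, 5.17 in Th1reg, 7.6 in Th1+TGFb and 6.1 in iTreg. Itgam of the myeloid list and the hydrolase gene Idua followed nearly the same course, with Itgam at 6.52, 8.84, 5.6, 7.95 and 6.58. Whether these probes read their own gene's RNA was not tested. In iTreg against Th1, 2 of the 20 were higher and 5 lower (35.0% apart against 28.6% of all genes), with the peptide transporter gene Abcb9 at -5.11, and 4 were higher and 4 lower with detected probes or with spike-ins. Cathepsin inhibitor genes lay 2-fold or more above iTreg in Th1reg for 3 of 3 measured (1 of 3 with detected probes), against 15.8% of all genes. Cst7, whose product cystatin F is held in lysosomes, had the widest gap. It stood at 5.92 in Th1, 5.2 in rested, 5.09 in Th1reg, 6.61 in Th1+TGFb and 0.54 in iTreg, or 41.6-fold lower in iTreg against Th1.

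Of the other autophagy core genes, 2 of 23 were 2-fold higher and 3 lower in rested than in Th1 cells (5 higher and 1 lower with detected probes, none higher and 15 lower with spike-ins), or 21.7% apart against 44.2% of all genes. None of the 23 was apart in Th1+TGFb against Th1 (1 lower with spike-ins), against 19.1% of all genes. In Th1reg against Th1+TGFb none was apart either (7 higher with spike-ins), against 27.4% of all genes. Tmem41b, which helps the autophagosome membrane to grow, was 7.15-fold lower in rested cells and 6.82-fold higher in Th1reg against rested. Among cargo and mitophagy receptors, Bnip3, which marks mitochondria for removal, was 6.00-fold lower in rested than in Th1 cells, 9.75-fold lower in iTreg against Th1, and 5.22-fold higher in Th1reg than in iTreg. Pink1, a kinase of damaged mitochondria, was 3.06-fold higher in rested cells than in Th1. Of the 12 fusion genes none was 2-fold apart in Th1+TGFb against Th1 on any scaling, against 19.1% of all genes on the main scale. None was apart in Th1reg against rested either (47.7% of all genes), but 11 were higher there with spike-ins, 2 higher with normexp and 1 lower with detected probes. In Th1reg against Th1+TGFb (27.4% of all genes apart) 5 were higher with spike-ins and none otherwise. Of the genes that govern TFEB and mTORC1, Tfe3, a close relative of TFEB, differed by -0.75 between rested and Th1, and Foxo1 by 0.94. The stress sensors differed from each other: Sesn1 was 4.72-fold higher and Sesn2 2.65-fold lower in rested than in Th1, and Sesn2 was 4.74-fold higher and Sesn1 3.08-fold lower in Th1reg against rested. Rragd, a GTPase that recruits mTORC1 and TFEB to the lysosome, was well above background in Th1reg (-1.47) and iTreg (-0.88) and on no other array.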

How the data were processed

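RNA of 5 cultures was labelled with Cy3 and hybridised to 1 Agilent array each. Per the file headers, signals were extracted with Agilent Feature Extraction 10.7.1.1, and the deposited values used are processed signal intensities; the background and spatial steps behind them were not examined. From these, outlier and control spots were left out, spots of a probe were averaged, and log2 of the array's 75th percentile over spots (signals of 144 to 306) was subtracted. Probes were named by RefSeq accession through a GRCm38.p6 gene table (28331 of 55681 probes), and the brightest probe stood for a gene. A gene entered a comparison when it was well above background on at least 1 of the arrays compared, with the dim side at the array's floor. The number of arrays, 1 per culture, limits the precision, so 2-fold (1 log2 unit) was used as a size, not a test. The deposited value table, given as a linear signal per probe, equals the processed signal divided by a constant per array for 99.7% to 99.8% of probes (within 0.01 log2), and served as an added alternative chosen after seeing the data. Other alternatives were the percentile over detected probes, 8 spike-in probes, normexp background correction (limma 3.58.1 in R 4.3.3, offset 50, on median signals, since mean signals were not used here), no filter, a stricter filter and the mean of a gene's probes. The step that takes differences and calls 2-fold was tested on simulated data with known folds. Scaling, spot averaging and the choice of probe were not tested in this way. The 37 genes and all lists were chosen with earlier results of these data known. All 37 are named, with values on all 5 arrays for those 2-fold apart in some comparison; of other lists, up to 4 genes with the largest differences per comparison, and regulators and markers, may be named. No animal or culture replicates are given in the labels.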

Additional observations from a re-analysis of the deposited data

How the results depend on the processing

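Of 45 member differences of at least 2-fold, 19 kept size and direction under all 7 alternatives and 21 under all apart from spike-in scaling. No filter and the stricter filter cannot change a member's difference, since all 37 genes were well above background on all 5 arrays. The mean of probes cannot change it for the 26 genes with 1 probe. Keeping a call under these choices was therefore fixed in advance and says nothing of stability. The deposited value table shifts all members of a comparison alike by a small constant, so only calls close to 2-fold could change, as for Neu1 in Th1reg against rested. Calls far from 2-fold were thus also fixed under it. With spike-ins, 3 turned in Th1reg against rested: Ctsd to 0.24, Map1lc3b to 0.27 and Neu1 to 0.36. Counts of higher and lower members moved by over 1.5 times as follows. For rested against Th1 (3 higher, 4 lower), detected probes gave 7 and 2, spike-ins 0 and 23, and normexp 1 higher. For Th1reg against rested (5 and 5), detected probes gave 3 and 13, spike-ins 23 and 0, and normexp 2 lower. For Th1+TGFb against Th1 (1 and 0), detected probes gave 6 higher and spike-ins 3 lower. For iTreg against Th1 (3 and 8), both scalings gave 4 lower. For Th1reg against Th1+TGFb (1 and 7), spike-ins gave 5 and 2. For Th1reg against iTreg (6 and 2), detected probes gave 2 and 4, and normexp and the mean of probes 1 lower each.

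The members' median minus the all-gene median is nearly fixed by construction under detected-probe and spike-in scaling, which subtract 1 constant per array, so its values there say nothing of stability. It moved with the gene filter, by which other genes enter. For rested against Th1 it was 0.12, -0.05 with normexp, -0.52 with no filter and 0.24 over genes measured on all 5 arrays. For Th1reg against rested it was -0.46, -0.12 with normexp, 0.28 with no filter, -0.59 over genes measured on all 5 arrays and -0.29 with the mean of probes. For Th1+TGFb against Th1 it was 0.37, 0.28 with normexp and 0.0 with no filter. It was -0.21 for iTreg against Th1 and -0.42 with no filter. For Th1reg against Th1+TGFb it was -0.52, -0.36 with normexp and -0.03 with no filter, and for Th1reg against iTreg 0.04 and 0.43 with no filter. Apart from the filter, the cause was not tested. With 1 array per culture no sample could be left out, and no paired analysis was possible because each culture has only replicate 1. Wipi1 was near background, so its differences are the least precise.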
